A study of Mus musculus with 109 samples.

Results

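The genes encoding voltage-gated sodium channels, voltage-gated calcium channels and HCN channels were followed in mouse retinas injected with inflammatory cytokines. Members were the protein-coding genes in the GENCODE annotation whose symbols name a sodium channel alpha subunit (Scn with a number and a) or beta subunit (Scn with a number and b), a calcium channel pore or alpha2delta subunit (Cacna1 or Cacna2 genes), a calcium channel beta subunit (Cacnb1 to Cacnb4), a gamma subunit (Cacng1 to Cacng8) or an HCN channel (Hcn genes). This gave 44 of the 37315 genes in the count table. They were 10 sodium channel alpha subunits, 4 sodium channel beta subunits, 4 L-type calcium channel pores, 3 pores of the P/Q, N and R types, 3 T-type pores, 4 alpha2delta subunits, 4 calcium channel beta subunits, 8 gamma subunits and 4 HCN channels. Of the 44, 41 passed the filter on low counts among the day 2 retinas. Cacng1, Cacng6 and Scn10a did not, with 333, 27 and 129 read pairs in total over all 109 retinas.

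Whole retinas were collected after intravitreal injection in mice of 2 to 4 months, males and females, and 45 of the 64 mice contributed both eyes. Each eye received 2 μL of sterile PBS, TNF (0.05 μg/μL), IL1A (0.1 μg/μL) or both cytokines, and in most mice the PBS eye was the partner of a cytokine eye. In batch 1, as the labels number it, all mice were WT C57BL/6J. At day 2 this batch held 31 PBS, 8 TNF, 9 IL1A and 10 IL1A+TNF retinas, at day 14 it held 7 PBS and 6 TNF retinas, and at day 35 it held 6 PBS and 9 TNF retinas. Batch 2 held day 2 retinas of both genotypes, with 5 PBS and 6 IL1A+TNF retinas from WT mice and 6 PBS and 6 IL1A+TNF retinas from Sarm1-/- mice, in which the NAD-cleaving axon degeneration gene Sarm1 is disrupted in every cell. The PBS eyes were also injected, so no retina was uninjured.

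Total counts ranged from 30014757 to 79064488 read pairs (median 39374202), and batch 2 was deeper, with a median of 52948994 against 38155183 in batch 1. Sarm1 itself was checked first. It ranged from 26.2 to 53.2 CPM (the count scaled by the library total and its TMM factor) in the 12 Sarm1-/- retinas and from 76.4 to 136 CPM in WT retinas, with no overlap. In batch 2 the IL1A+TNF retinas of the Sarm1-/- mice 61924 and 61926 stood apart from all others in these genes, and that of mouse 61765 lay between them and the rest. Results that rest on them are given with and without them. Within each group no retina was a copy of another, and copies between groups were not looked for.

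Voltage-gated sodium channels carry the rising phase of the action potential. Their alpha subunit forms the pore, and the beta subunits set its gating and its place in the membrane. In calcium channels an alpha1 subunit forms the pore, while alpha2delta and beta subunits bring it to the membrane, and most Cacng proteins are TARPs, which carry AMPA receptors to synapses. HCN channels open on hyperpolarization and pass a mixed cation current. In the retina, action potentials are mainly the work of ganglion cells and some amacrine cells, whereas photoreceptors and bipolar cells release glutamate through L-type calcium channels at ribbon synapses and HCN channels shape their light responses.

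In PBS retinas at day 2 the most abundant pair of members per length of transcript belonged to the photoreceptor ribbon synapse. Levels between genes are given in CPM per kilobase of merged exons, as mean ± SD over 31 retinas. Cacna2d4, the alpha2delta subunit of photoreceptor channels, was at 56.2 ± 4.28 and Cacna1f, the L-type pore of photoreceptor terminals, at 52.4 ± 7.32, a gap within their spread. The TARP Cacng7 followed at 39.3 ± 3.17. Next were Cacnb2, the beta subunit of photoreceptor calcium channels, at 17.3 ± 1.15, the T-type pore Cacna1h at 17.0 ± 1.64 and the TARP Cacng4 at 17.0 ± 1.21. These neighbours did not differ beyond their spread. Among sodium channel genes the beta subunit Scn2b led with 15.3 ± 1.24, and the highest alpha subunits were Scn8a at 11.0 ± 1.18 and Scn1a at 9.90 ± 0.957, both pores of central neurons. Among HCN channels Hcn2 was at 8.34 ± 0.768, Hcn3 at 6.22 ± 0.474 and Hcn4 at 2.13 ± 0.298. Pores named for other tissues were measured too. The skeletal muscle pores Cacna1s and Scn4a were at 4.21 ± 0.350 and 2.77 ± 0.595, while Cacna1c, the L-type pore of heart and many neurons, was at 0.586 ± 0.0901. The sensory neuron pore Scn11a was at 0.0357 ± 0.0207. Merged exons include long untranslated ends, which lowers the value per kilobase of genes that have them.

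**Figure D1:**
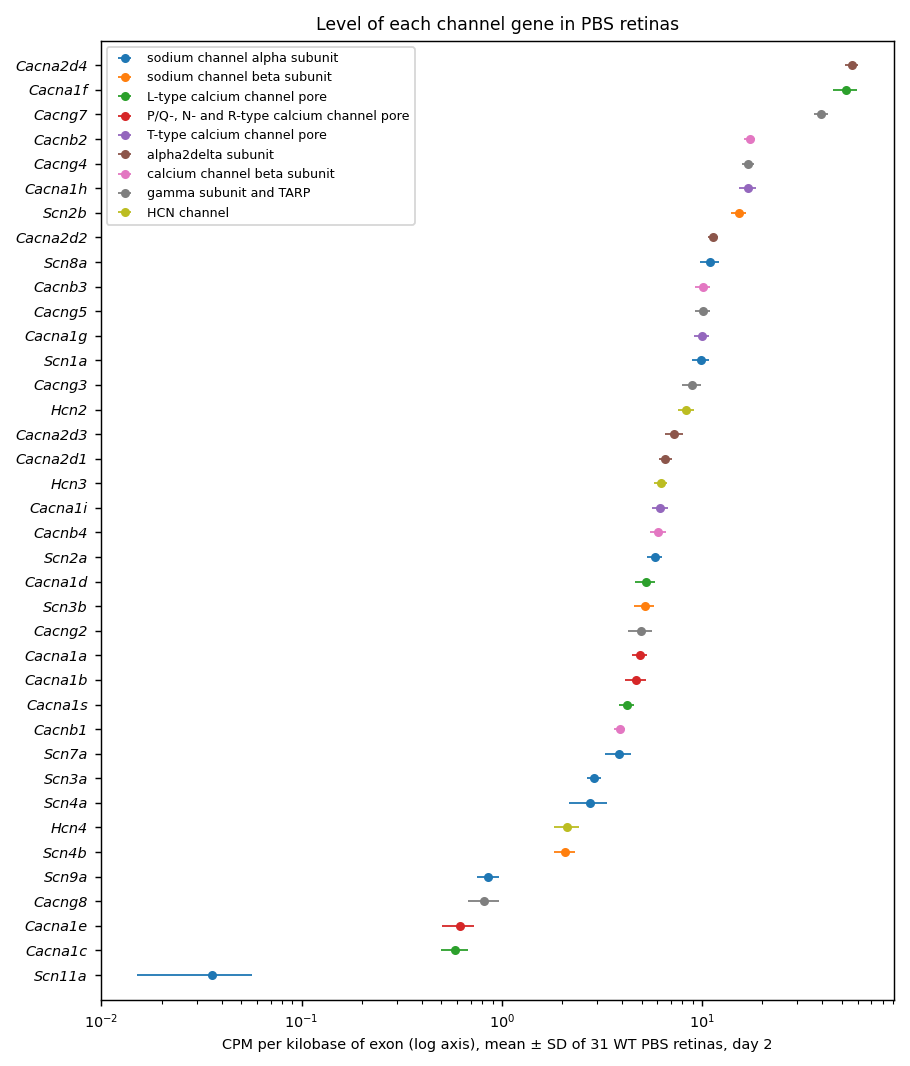
Level of 38 of the tested channel genes in the 31 WT PBS retinas of day 2, in CPM per kilobase of exon on a log axis (points, mean; bars, SD; colours, role). Cacna2d4 at 56.2 and Cacna1f at 52.4 lead the list, and Scn4a and Scn4b, at 2.77 and 2.08, lie near its lower end.

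IL1A+TNF lowered most of these genes by day 2. Of the 41 tested, 31 had lower expression than in PBS retinas, 0 had higher expression and 10 were not called (limma, FDR under 0.05, the Benjamini-Hochberg adjusted p over all genes tested). Among all 19548 genes, 50.4% were called, 25.5% of them lower and 24.9% higher as shares of the genes tested, so the members' share of lower calls, 75.6%, lay above the background and their share of higher calls below it. The median log2 fold change of the members was −0.22, against −0.02 for all genes, and 34 members had an unadjusted p under 0.05. No member had every IL1A+TNF retina below every PBS retina, a pattern found in 0.384% of all genes. The tissue was sequenced whole, so fewer cells of a type and less RNA per cell cannot be told apart in any of these values.

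The sodium channel genes held the largest changes. Scn4a, the pore of skeletal muscle fibres, ranged from 12.6 to 33.8 CPM in PBS retinas (median 18.5) and from 5.09 to 14.3 CPM in IL1A+TNF retinas (median 7.71). All 10 treated retinas were below the PBS mean and 8 were below the lowest PBS retina, and the difference was −1.20 on the log2 scale (SE 0.12, FDR 1.05e-12, limma). Scn4b, a beta subunit whose tail blocks open channels and gives resurgent current, ranged from 7.43 to 12.5 CPM (median 10.3) in PBS retinas and from 3.03 to 9.48 CPM (median 5.33) after IL1A+TNF. It fell by 1.03 on the log2 scale (SE 0.11, FDR 2.55e-11, limma), with 9 of 10 treated retinas below every PBS retina. Scn7a, an atypical sodium-sensing member of the family, ranged from 20.0 to 38.5 CPM (median 28.3) in PBS retinas and from 8.88 to 25.3 CPM (median 18.8) after IL1A+TNF. Its log2 fold change was −0.70 (SE 0.10, FDR 1.35e-08, limma), and 7 of 10 treated retinas lay under the PBS range.

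Markers of skeletal muscle, where Scn4a is best known, were low. The muscle myosin genes Myh1, Myh2 and Myh4 were below 0.1 CPM in both groups, and the summed level of 10 muscle markers was 13.4 to 20.3 CPM in PBS and 13.1 to 17.0 CPM in IL1A+TNF retinas, with 2 of the 5 tested markers lower. Pvalb and Atp2a1 of that list are also expressed by retinal neurons.

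The pores of central neurons moved less. Scn1a ranged from 72.7 to 125 CPM in PBS retinas (median 112) and from 66.2 to 95.4 CPM after IL1A+TNF (median 82.8), and its log2 fold change was −0.41 (SE 0.06, FDR 2.92e-08, limma). Every treated retina was below the PBS mean, and 1 was below the whole PBS range. Scn2a, Scn3a and Scn9a were lower by 0.11 to 0.28 on the log2 scale. The antisense gene Gm13629 overlaps exons of Scn9a, with 9306 counts over all retinas against 45640 on Scn9a. Scn8a, the main pore of mature nodes of Ranvier, was not called (log2 fold change −0.09, FDR 0.159), nor was Scn11a. Of the beta subunits, Scn2b was lower by 0.18 as well, and Scn3b ranged from 21.9 to 35.3 CPM in PBS and 17.4 to 25.5 CPM in IL1A+TNF retinas (log2 fold change −0.37, SE 0.06, FDR 3.65e-07, limma).

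Promoter windows of the 4 members with the largest fold changes are shown so that they can be compared as sequence. They run from 250 bases before to 50 bases after a RefSeq transcription start on GRCm38.p6, 5′ to 3′ on the strand of the gene, and capitals mark CG dinucleotides. The Scn4a window is chr11:106349341-106349640 on the minus strand, Scn4b is chr9:45138374-45138673 on the plus strand, Scn7a is chr2:66784861-66785160 on the minus strand and Cacna1f is chrX:7606853-7607152 on the plus strand.
Scn4a: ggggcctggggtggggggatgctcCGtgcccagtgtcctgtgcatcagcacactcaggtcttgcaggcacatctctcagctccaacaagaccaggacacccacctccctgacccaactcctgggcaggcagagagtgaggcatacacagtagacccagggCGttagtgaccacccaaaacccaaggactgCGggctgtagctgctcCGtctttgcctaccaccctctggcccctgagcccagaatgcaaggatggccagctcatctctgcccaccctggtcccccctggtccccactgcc
Scn4b: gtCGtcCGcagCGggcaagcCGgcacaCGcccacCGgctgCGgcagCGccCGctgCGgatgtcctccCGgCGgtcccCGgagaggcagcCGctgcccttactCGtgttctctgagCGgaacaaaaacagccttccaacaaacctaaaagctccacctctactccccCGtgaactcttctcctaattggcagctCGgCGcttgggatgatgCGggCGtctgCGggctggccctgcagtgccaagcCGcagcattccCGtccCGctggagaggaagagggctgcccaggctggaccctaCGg
Scn7a: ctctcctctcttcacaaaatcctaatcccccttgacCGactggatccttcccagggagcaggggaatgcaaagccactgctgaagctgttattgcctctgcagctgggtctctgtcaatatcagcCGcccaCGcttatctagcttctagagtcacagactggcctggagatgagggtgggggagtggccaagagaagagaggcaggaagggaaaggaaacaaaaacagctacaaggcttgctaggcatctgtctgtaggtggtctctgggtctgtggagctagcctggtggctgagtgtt
Cacna1f: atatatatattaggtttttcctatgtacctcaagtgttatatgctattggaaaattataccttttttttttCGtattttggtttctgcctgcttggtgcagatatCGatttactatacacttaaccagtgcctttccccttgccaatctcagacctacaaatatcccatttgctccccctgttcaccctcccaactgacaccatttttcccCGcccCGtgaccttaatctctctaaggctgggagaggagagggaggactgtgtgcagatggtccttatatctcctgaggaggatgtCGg
The windows differed in base composition. Scn4b held 26 CG dinucleotides and 66.3% G and C, whereas Scn4a held 4 with 63.0%, Scn7a held 3 with 54.0% and Cacna1f held 5 with 43.7%. All 32851 promoter windows in the table had a median of 7, and the 43 windows of the 32 members that matched had a median of 11. On either strand, the AP-1 motif TGANTCA was found in 1 of the 43 windows (Cacng5) and in 7.81% of all windows. The photoreceptor CRX/OTX motif TAATCC was found in 4 windows (Cacna1c, Cacna1s, Cacng8 and Scn7a) and in 7.06% of all. The E-box CANNTG was found in 29 of 43 windows and in 72.3% of all. A window without these letters says nothing of sites elsewhere.

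The calcium channel of the photoreceptor synapse was lower in each of its subunits. The pore Cacna1f ranged from 364 to 584 CPM in PBS retinas (median 459) and from 224 to 410 CPM after IL1A+TNF (median 298), and 9 of 10 treated retinas were below every PBS retina. The log2 fold change was −0.64 (SE 0.07, FDR 1.42e-11, limma). Its alpha2delta partner Cacna2d4 ranged from 464 to 604 CPM (median 525) and from 401 to 484 CPM (median 461) after treatment, a difference in means of −15.2%. Cacnb2 ranged from 195 to 260 CPM (median 232) and from 179 to 220 CPM (median 189), with a log2 fold change of −0.26 (FDR 7.22e-09, limma). For the pore the difference in means was −36.1%. Reads on Cacnb2 cannot be told from those on the antisense gene Gm13269 where their exons overlap. Gm13269 had 3559 counts over all retinas, against 1004571 on Cacnb2.

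Other calcium channel subunits were lower by smaller amounts. Of the L-type pores, Cacna1s (23.7 to 32.8 CPM in PBS, 20.1 to 24.9 CPM in IL1A+TNF retinas) had a log2 fold change of −0.29 (SE 0.05, FDR 3.35e-07, limma) and Cacna1d of −0.17, while Cacna1c was not called (−0.15, FDR 0.102). Of the presynaptic pores, the P/Q-type Cacna1a and the N-type Cacna1b were lower by 0.15 and 0.19, and the R-type Cacna1e was not called (−0.20, FDR 0.0594). Of the T-type pores, which open near rest, Cacna1h ranged from 133 to 194 CPM in PBS and 92.4 to 168 CPM in IL1A+TNF retinas (log2 fold change −0.35, SE 0.06, FDR 2.85e-07, limma). Cacna1g was lower by 0.22 and Cacna1i was not called (−0.10, FDR 0.0684). Cacna1h shares exonic sequence with Tpsg1 on the other strand (1497 counts over all retinas, against 691221 on Cacna1h). Cacna1d shares it with Chdh (32079 counts over all retinas, against 293258 on Cacna1d). All 4 alpha2delta subunits were lower. Cacna2d3 changed most, from 50.6 to 76.2 CPM in PBS retinas (median 63.0) to 39.2 to 53.6 CPM (median 48.0), with a log2 fold change of −0.40 (SE 0.05, FDR 1.56e-10, limma) and 7 of 10 treated retinas under the PBS range. Of the beta subunits Cacnb2 and Cacnb4 were lower, and Cacnb1 (−0.08, FDR 0.0586) and Cacnb3 (0.03, FDR 0.591) were not called.

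Of the 6 tested gamma subunits 5 were lower, all of them TARPs. Cacng3 ranged from 20.4 to 30.1 CPM in PBS and 17.2 to 23.8 CPM in IL1A+TNF retinas (log2 fold change −0.33, SE 0.05, FDR 6.56e-07, limma), and 8 of 10 treated retinas were below every PBS retina. Cacng4 ranged from 51.4 to 68.9 CPM and from 35.3 to 64.3 CPM (−0.29, SE 0.05, FDR 3.74e-07, limma). Cacng7, the most abundant of them, went from 79.5 to 110 CPM to 74.3 to 91.8 CPM, with a log2 fold change of −0.20. Cacng8 was not called, with a value above 0 (0.16, FDR 0.0993).

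Of the HCN channels, Hcn2 ranged from 20.7 to 30.8 CPM in PBS and from 17.1 to 26.7 CPM in IL1A+TNF retinas, a log2 fold change of −0.30 (SE 0.05, FDR 3.69e-06, limma), and Hcn3 was lower by 0.23. Hcn4 was not called (−0.06, FDR 0.517), with a 95% interval from −0.20 to 0.08. The exons of Hcn3 overlap those of Pklr on the other strand (1329 counts over all retinas, against 110855 on Hcn3).

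**Figure D2:**
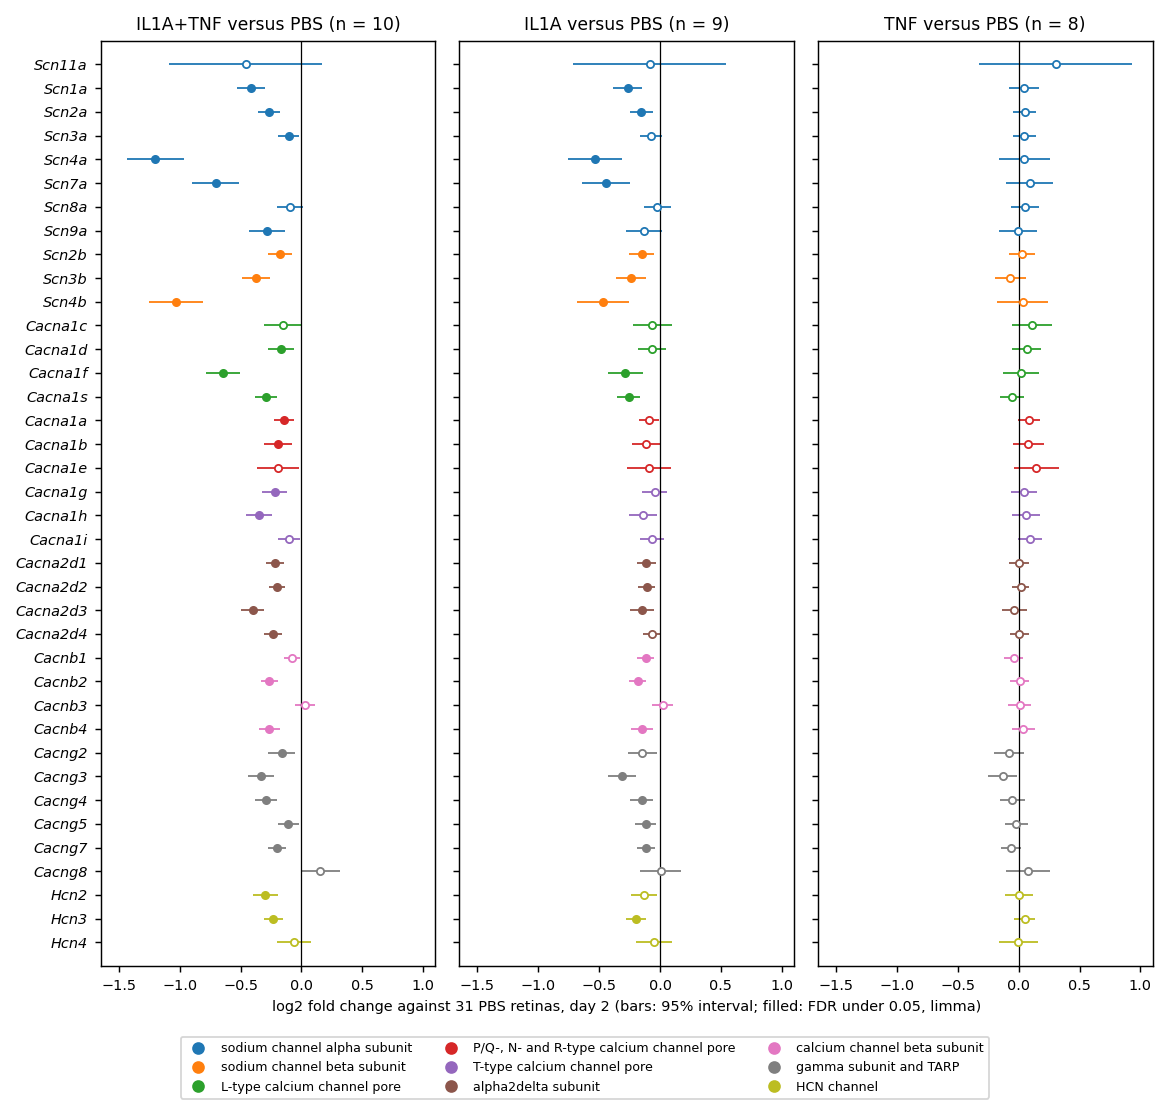
Log2 fold change of 38 of the tested channel genes at day 2 against the same 31 PBS retinas, in IL1A+TNF (10 retinas), IL1A (9) and TNF (8) retinas (points, estimate; bars, 95% interval; filled, FDR under 0.05 in limma; colours, role). In IL1A+TNF retinas 29 points are filled, all below 0, in IL1A retinas 20, all below 0, and in TNF retinas none.

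Markers of the cells that hold these channels moved in the same retinas. After IL1A+TNF, 9 of 9 cone markers were lower, with summed levels of 254 to 940 CPM against 829 to 1210 CPM in PBS retinas, as were 9 of 10 rod markers (24100 to 43600 against 37300 to 58000 CPM). Of the ganglion cell markers 11 of 14 were lower (710 to 875 against 755 to 1070 CPM), of the amacrine markers 7 of 8, of the bipolar markers 8 of 10 and of the horizontal cell markers 3 of 5. Immune markers were higher. These were 8 of 8 monocyte markers, 7 of 9 microglial markers and 6 of 7 neutrophil markers, whose sum was 119 to 748 CPM against 2.83 to 130 CPM, although Ly6g, which defines neutrophils, was below 0.1 CPM in both groups. Their part in the channel results was not tested.

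Most genes that work with these channels were lower too. Of 37 channel partners and regulators, 29 were lower and 1 was higher (median −0.19). The largest changes were those of Lrmp, an HCN4 regulator, at 1.38, the sodium channel binding factor Fgf11 at −0.72 and the active zone proteins Rims2 at −0.63 and Rims1 at −0.60 on the log2 scale. Of 19 calcium handling genes, 12 were lower and 1 was higher (median −0.21). The calcium pump Atp2a3 was higher by 0.71, while the ryanodine receptor Ryr3 (−0.50), the sodium-calcium exchanger Slc8a3 (−0.39) and the pump Atp2a1 (−0.37) were lower.

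IL1A alone lowered a smaller number. Of the 41 genes 21 were lower and 0 higher, where 21.4% of all genes were called and 9.45% were lower, and the median log2 fold change was −0.13 against −0.01 for all genes. Scn4a ranged from 8.84 to 18.9 CPM (median 13.1), with 9 of 9 retinas below the PBS mean and 4 below the PBS range, and its log2 fold change was −0.53 (SE 0.11, FDR 0.000214, limma). The next largest were Scn4b (−0.47), Scn7a (−0.44), Cacng3 (−0.31), Cacna1f (−0.28) and Scn1a (−0.27). No P/Q-, N-, R- or T-type pore was called, and Hcn3 was lower (−0.20). Without the IL1A retina of mouse 60637 the number was 11 (5.57% of all genes lower, members' median −0.11). With mouse as a fixed factor it was 2 (1.36% of all genes lower), while the median was −0.13 as before. That fit kept only 7 mice with an IL1A and a PBS eye (14 retinas), so pairing and fewer retinas cannot be told apart. Both fits had 0 higher. Of the partners 18 were lower and 1 higher, and of the calcium handling genes 4 were lower and 1 higher. Ganglion cell markers summed to 585 to 936 CPM in these retinas and rod markers to 25700 to 46100 CPM, and their part in the result was not tested.

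No member was called with TNF alone at day 2, which does not exclude changes too small to be called. Of the 41 genes 0 were called, 1 had an unadjusted p under 0.05, and 0.655% of all genes were called, and edgeR and DESeq2 called 0 as well. Log2 fold changes ran from −0.13 to 0.30. Scn4a was at 14.8 to 25.9 CPM (median 19.7) and Cacna1f at 396 to 593 CPM (median 460), within or close to their PBS ranges. The IL1A+TNF, IL1A and TNF comparisons of day 2 share their PBS retinas.

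Adding TNF to IL1A gave lower expression of 6 members than IL1A alone, where 4.68% of all genes were lower. Scn4a was lower by 0.67 on the log2 scale (SE 0.15, FDR 0.00196, limma) and Scn4b by 0.56 (SE 0.14, FDR 0.00656, limma). The other 4 were Cacna1f (−0.36), Cacna2d3 (−0.25), Cacna1h (−0.21) and Cacna2d4 (−0.16). Against TNF alone 32 members were lower in IL1A+TNF retinas, where 19% of all genes were lower. The combined effect was compared with the sum of the single effects by an interaction term. It was below 0 and called for 2 members, as it was for 1.82% of all genes, namely Scn4a (−0.71, SE 0.18, FDR 0.0202, limma) and Scn4b (−0.59, SE 0.18, FDR 0.0457, limma). Cacna1f missed the threshold (−0.38, FDR 0.0544). The call of Scn4a held under each of the 34 alternatives run for this term, and that of Scn4b under 9 of them.

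**Figure D3:**
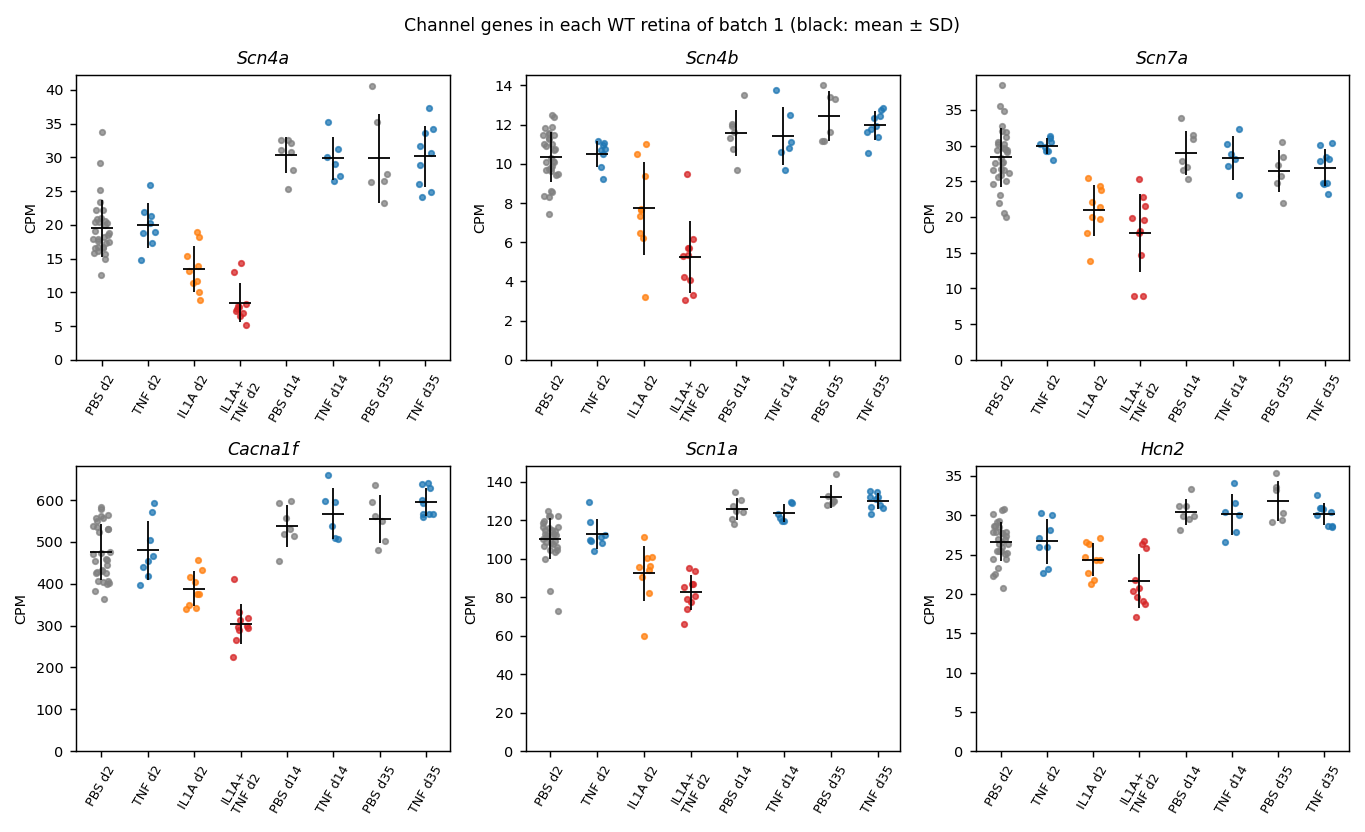
CPM of 6 channel genes in every WT retina of batch 1, by treatment and day (points, retinas; black, mean ± SD; each axis starts at 0). For Scn4a the IL1A+TNF retinas of day 2 sit between 5.09 and 14.3 CPM and the PBS retinas of day 14 between 25.4 and 32.6 CPM, while Hcn2 covers 17.1 to 26.7 CPM after IL1A+TNF, overlapping its PBS range of 20.7 to 30.8 CPM.

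TNF was followed to later days. At day 14 0 of 40 tested members were called, with 2 at an unadjusted p under 0.05 and a smallest FDR of 0.888 (limma), and at day 35 0 were called, with 4 at an unadjusted p under 0.05 and a smallest FDR of 0.889. Among all genes 0% were called on either day. Scn4a ranged from 26.5 to 35.2 CPM after TNF and from 25.4 to 32.6 CPM after PBS at day 14. At day 35 it ranged from 24.1 to 37.4 CPM and from 23.2 to 40.5 CPM, so the groups overlapped on both days. The TNF effect at day 14 or 35 against that at day 2 was called for 0 members and for 0% of all genes, with 0 and 1 members at an unadjusted p under 0.05. In each of these comparisons edgeR and DESeq2 also called 0 members.

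Levels in the PBS retinas themselves differed between days. At day 14 17 of 41 members were higher than at day 2 and 0 were lower, where 18% of all genes were called and 8.34% were higher, and the members' median was 0.14 against 0.01 for all genes. At day 35 20 were higher and 0 lower, where 32.9% were called and 15.9% were higher. Scn4a had the largest difference on both days. Its PBS median was 18.5 CPM at day 2, 31.1 CPM at day 14 (log2 fold change 0.66, SE 0.10, FDR 1.62e-06, limma) and 27.0 CPM at day 35 (0.62, SE 0.11, FDR 4.52e-06, limma). Among the others higher on both days were Cacna2d3 (0.31 and 0.23), Cacna1s (0.23 on each), Scn1a (0.20 and 0.28), Hcn2 (0.21 and 0.27) and Hcn4 (0.22 and 0.25). Scn4b was higher at day 35 (0.29), and Scn7a was called on neither day. Both comparisons share the day 2 PBS retinas, and each day had its own mice. The labels do not say how mice were assigned to days, and day and handling cannot be told apart. In the same retinas 9 of 9 microglial markers were lower on both days, with a summed level of 85.7 to 151 CPM at day 2, 57.5 to 73.2 CPM at day 14 and 42.9 to 53.3 CPM at day 35, and rod markers summed to 37300 to 58000, 52700 to 62700 and 54600 to 63200 CPM. Their part in the result was not tested.

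The IL1A+TNF comparison was repeated in WT mice of batch 2. All 41 members had a log2 fold change below 0, with a median of −0.39, and 5 were lower (limma), where 7.55% of all genes were lower. These were Scn4a (−1.13), Scn7a (−1.01), Cacna1f (−0.59), Cacnb2 (−0.37) and Cacna2d4 (−0.20). Scn4a ranged from 16.0 to 22.9 CPM in PBS and from 5.90 to 12.8 CPM in IL1A+TNF retinas, which did not overlap. Scn4b, at 9.55 to 12.4 CPM and 2.27 to 6.28 CPM, did not overlap either but was not called. Cacna1f and Cacna1g were also without overlap, and the share of all genes without overlap was not computed for this comparison. The fit with 5 lower members shared its estimate of the spread with the Sarm1-/- retinas. With the WT retinas of batch 2 alone 33 members and 18.1% of all genes were lower, led by Scn4b (−1.43), Scn4a (−1.11), Scn7a (−1.03), Scn1a (−0.73) and Cacna2d3 (−0.67), and without the IL1A+TNF retinas of mice 61924 and 61926 34 members and 18.6% of all genes were lower. With mouse as a fixed factor 29 members and 13.4% of all genes were lower. That fit kept only the 10 paired WT retinas of batch 2 and so left out the Sarm1-/- retinas too. The retinas varied, with a median log2 ratio to the PBS mean over the 41 members from −0.15 to −0.81.

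In PBS retinas the genotypes were not distinguished. Of the 41 members 0 were called between Sarm1-/- and WT (limma, smallest FDR 0.989), 0 had an unadjusted p under 0.05, and 0.0397% of all genes were called. Leaving out each Sarm1-/- mouse or batch 2 WT mouse in turn also gave 0, as did edgeR and DESeq2.

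After IL1A+TNF, 37 of 41 members were lower in Sarm1-/- retinas than in Sarm1-/- PBS retinas, with a median of −0.90, where 22.2% of all genes were lower. This rested on few retinas. Scn1a was at 112, 94.8 and 99.0 CPM in the treated eyes of mice 61561, 61564 and 62221, at 39.6 CPM in mouse 61765 and at 8.38 and 6.24 CPM in mice 61924 and 61926, against 99.7 to 125 CPM in the PBS eyes of the same mice. The treated retinas of the males 61561, 61564 and 62221 were thus near the PBS level and those of the females 61765, 61924 and 61926 below it, while the PBS eyes of all 6 mice were close to WT ones, with medians from −0.13 to 0.05 on the log2 scale over the 41 members against the mean of WT PBS eyes. The median log2 ratio of treated to PBS eye over the 41 members was 0.08, −0.10 and −0.15 in the males, −0.60 in mouse 61765 and −2.34 and −2.49 in mice 61924 and 61926. In WT mice of batch 2 the treated retinas of the 3 females had medians of −0.64, −0.48 and −0.27 against the PBS mean, and those of the 3 males −0.81, −0.15 and −0.28, so the sexes overlapped there. In the Sarm1-/- mice the low values and the sex of the mouse cannot be told apart.

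The channel genes were not equally low in the retinas of mice 61924 and 61926. In both, 26 of the 41 members were under −2 on the log2 scale against the PBS eye. The share of all genes under this limit was not computed, so the count describes the members only. The 26 included the sodium channel beta subunits Scn2b, Scn3b and Scn4b, all 3 pores of the P/Q, N and R types and all 3 T-type pores. They also held 3 of 4 alpha2delta subunits and 4 of 6 gamma subunits. Scn4b was at 0.325 and 0.249 CPM, against 9.87 and 9.93 CPM in the PBS eyes, and the TARP Cacng5 was at 3.31 and 3.19 CPM. Members above −1 in both included Scn4a, Scn8a, Cacna1f, Cacna2d4, Cacnb1, Cacnb2, Cacng7 and Cacng8. Among them are the pore, alpha2delta and beta subunit of the photoreceptor calcium channel. Members above −1 were not all at the PBS level, with Cacna1f at 64.9% and 53.7% of its PBS eye in mice 61924 and 61926. Cacng7 was at 57.4% and 58.3%, whereas Cacna2d4 was at 114% and 91.5%. CPM is relative to the other RNA of a retina, so neither these values nor the tests between genotypes give amounts per retina. Over the 6 treated Sarm1-/- retinas Cacna2d4 covered 418 to 529 CPM. Mouse 61765 had another order, with Scn4a at 6.34 CPM, the lowest of the group, while mice 61924 and 61926 had 13.8 and 13.7 CPM, inside the 11.7 to 14.6 CPM of the males.

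Markers moved with these values. In the treated retinas of mice 61924 and 61926 ganglion cell markers summed to 204 and 172 CPM, against 762 to 901 CPM in the males and 414 CPM in mouse 61765. Horizontal cell markers summed to 33.0 and 31.2 CPM, against 206 to 216 CPM in the males, amacrine markers to 126 and 139 CPM against 678 to 735 CPM, and bipolar markers to 549 and 519 CPM against 1490 to 1680 CPM. These values were also below the WT IL1A+TNF retinas of batch 2. Their lowest ganglion, horizontal, amacrine and bipolar sums were 483, 121, 377 and 997 CPM. Rod markers, at 30500 and 26100 CPM, were nearer to the males' 35300 to 47200 CPM, and in mouse 61765 they were at 23100 CPM. Cone markers were lower in all 3 females, at 262 and 266 CPM and in mouse 61765 at 247 CPM, against 666 to 852 CPM in the males. In WT IL1A+TNF retinas they summed to 360 to 602 CPM in batch 2 and 254 to 940 CPM in batch 1. Neutrophil markers summed to 667 and 606 CPM, against 103 to 231 CPM in the males and 321 CPM in mouse 61765. In WT IL1A+TNF retinas they summed to 149 to 675 CPM in batch 2 and 119 to 748 CPM in batch 1, ranges that include 667 and 606 CPM. In the PBS eyes of the Sarm1-/- mice they summed to 105 and 103 CPM in the males 61561 and 61564 and to 5.14 to 17.0 CPM in the other 4 mice. In mouse 61561 the treated eye, at 103 CPM, was thus level with its PBS eye. Their part in the channel values was not tested.

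**Figure D4:**
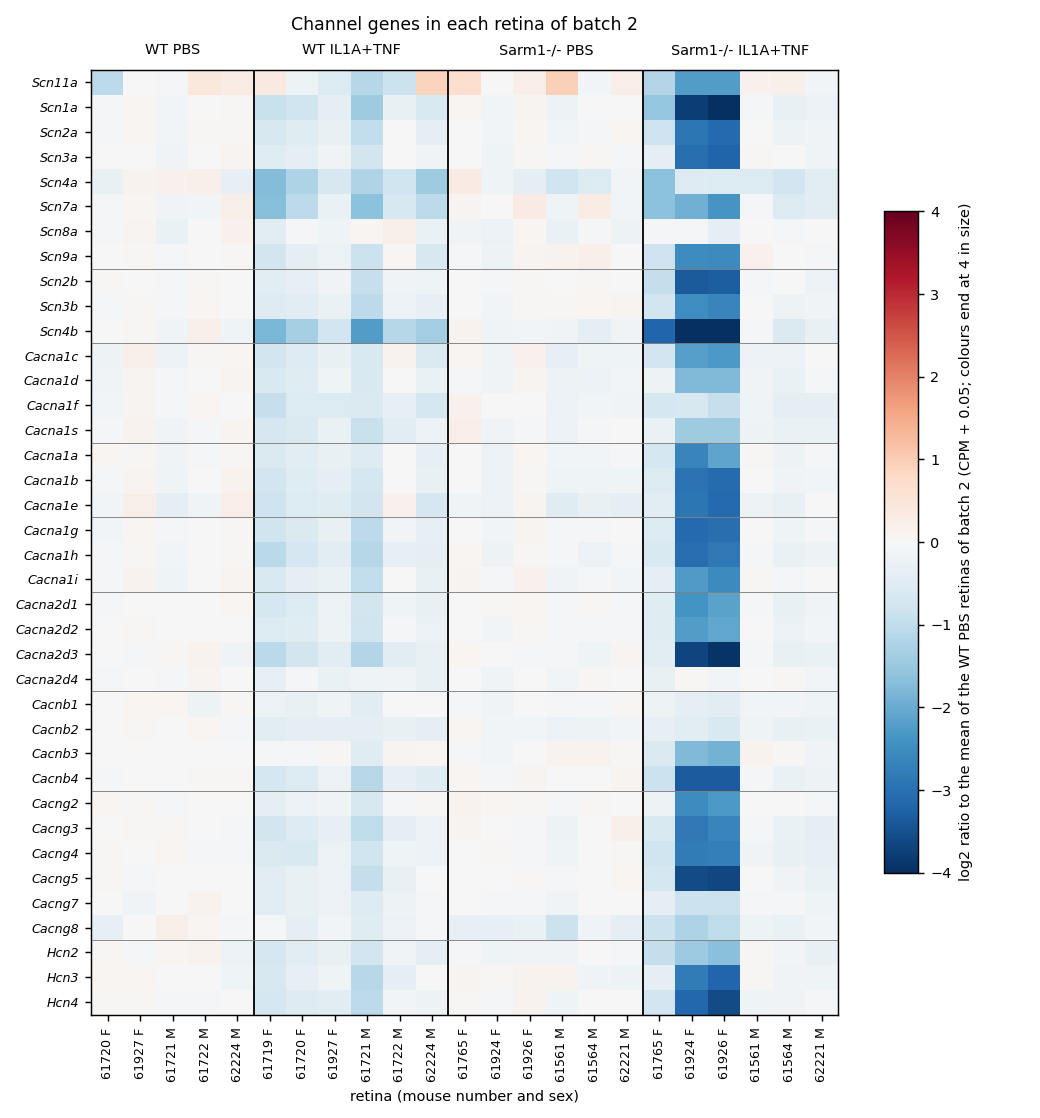
Log2 ratio of each channel gene, in every retina of batch 2, to its mean in the WT PBS group (columns, retinas by mouse number and sex; rows, 38 of the tested genes by role; colours end at 4 in size). The treated Sarm1-/- retinas of mice 61924 and 61926 are dark blue for most genes and pale for Scn4a, Cacna1f, Cacna2d4 and Cacnb2.

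The tests between genotypes turned on the same retinas. Without the treated retinas of mice 61924 and 61926, 14 members and 6.76% of all genes were lower in IL1A+TNF than in PBS Sarm1-/- retinas (members' median −0.22). Without that of mouse 61765 as well, 0 members (median −0.10, 5 at an unadjusted p under 0.05) and 0.469% of all genes were lower. In a fit of the paired Sarm1-/- eyes alone (6 mice), in which mouse was a fixed factor, limma called 0 members and 0 genes in all. In that fit 12 members had an unadjusted p under 0.05. Between Sarm1-/- and WT IL1A+TNF retinas 28 members were lower and 1, Cacna2d4, was higher, with a median of −0.59, where 10.8% of all genes were lower and 4.04% higher. Without both low retinas 0 members and 0.898% of all genes were called (members' median 0.11, smallest FDR 0.0767, limma, 7 with an unadjusted p under 0.05). Without all 3 low retinas 6 members and 2.41% of all genes were higher and 0 members lower, namely Scn4b (0.96), Scn1a (0.44), Scn9a (0.43), Cacna1h (0.38), Cacna1g (0.38) and Cacna2d3 (0.38). The set of retinas left out was chosen after their values were seen, which favours a higher level in the retinas that stay, so those 6 are a description.

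The difference between the genotypes in their response to IL1A+TNF, an interaction term, was called for 23 members, 21 with a larger drop in Sarm1-/- retinas and 2 with a smaller one, where 7.24% and 1.51% of all genes were called in these directions. The largest was that of Cacng5 (−1.12, SE 0.25, FDR 0.00733, limma), followed by Scn1a (−1.11), Scn2b (−1.04), Hcn4 (−1.04), Cacnb4 (−0.98), Cacna2d3 (−0.87), Scn3a (−0.86) and Scn2a (−0.84). The 2 in the other direction were Scn4a (0.76, SE 0.21, FDR 0.0179, limma) and Cacna2d4 (0.19, FDR 0.0474). Leaving out mouse 61924 alone, mouse 61926 alone or both treated retinas gave 0 calls (14, 17 and 4 members at an unadjusted p under 0.05, limma), as did edgeR (18) and batch 2 by itself (1), and DESeq2 called 1. Without the 3 low retinas, left out for their low values, 2 members and 0.362% of all genes lay past the threshold with a smaller drop in Sarm1-/- retinas, Scn4a (0.85) and Scn4b (0.98), which is likewise a description.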

How the data were processed

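The data are RNA-seq of 109 retinas, each sequenced whole, of 64 mice. Before deposition the authors used STAR 2.7.9a to map read pairs to mm10 and featureCounts of Subread 2.0.1 to sum them by gene, and the deposited values are raw counts without normalization. A strand setting is not given in the sources used here, so a gene and an antisense gene over its exons cannot be told apart. Symbols and positions came from GENCODE M21 (GRCm38), and promoter windows from RefSeq (GRCm38.p6).

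Groups, sex, batch, day and mouse came from the labels. Genes were kept with filterByExpr of edgeR 4.0.16 (minimum count 10, total 15, proportion 0.7), counts were TMM scaled, and voom and duplicateCorrelation of limma 3.58.1 in R 4.3.3 were run in 2 rounds with mouse as the block and sex as a covariate. The fits covered the 58 retinas of day 2 in batch 1, day 14 (13 retinas), day 35 (15), batch 1 jointly (86), batch 2 (23), and for the genotype contrasts the day 2 PBS and IL1A+TNF retinas of both batches with the IL1A and TNF retinas (81), with batch as a term. An FDR under 0.05, adjusted by Benjamini-Hochberg over all genes of a fit, is called a difference. Ratios of single retinas used CPM plus 0.05. At depths of 30014757 to 79064488 counts a count of 10 lies below 1 CPM. Replicates are eyes of separate mice within a group, except 1 mouse with 2 PBS eyes at day 14. Eyes of a mouse are paired by the labels. After group means were removed their correlation over genes had a median of 0.174 (from −0.304 to 0.547) and was above 0.1 in 28 of 45 mice. Tested on simulated data with 200 changed genes, the day 2 fit called 100% of those with a log2 fold change of 1 for IL1A+TNF. For the genotype by treatment term the share was 90%, and 13 and 14 unchanged genes were called. The simulated counts had no correlation between eyes of a mouse and no outlying retinas, and only genes above 1 CPM were changed. These shares thus do not cover changes smaller than 1 or results that rest on few retinas.

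The members and lists were chosen with earlier results of these data known. Full values are given for the 12 members with the largest called change after IL1A+TNF, for those called in the other comparisons (with a change over 0.5 where IL1A+TNF or IL1A was set against another group, and at most 8 in a comparison), and for the 6 highest per kilobase. Of the lists of channel partners and of calcium handling genes the counts and the 4 largest called changes are given. Alternatives were other size factors, filters and tools (edgeR, DESeq2 1.42.0), no mouse block, mouse as a fixed factor, no sex term, other sets of batches, each mouse left out in turn, and, chosen after seeing the data, fits without the low Sarm1-/- retinas and with WT retinas of batch 2 only. 3 of the tested members enter the counts and medians of the family and are not reported here by name.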

Additional observations from a re-analysis of the deposited data

Results flagged for a closer look

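Several single retinas lay far from the others of their group by Dixon's criterion. Of 231 groups of 4 to 10 retinas examined over 21 named genes, 16 held such a retina, where chance gives about 1 in 20, or 12. Values are in CPM, each followed by the nearest other retina of its group.

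The IL1A retina of mouse 60637 was the lowest of its group for 3 genes, with Cacng3 at 14.0 (next 18.9), Scn2b at 44.6 (next 60.2) and Scn3b at 15.2 (next 23.0). Mouse 60780 was the highest of the IL1A+TNF group for Cacnb2 at 220 (next 196) and Scn4b at 9.48 (next 6.16), and mouse 60212 was the lowest of it for Scn3a at 26.1 (next 31.3). Among TNF retinas of day 2, Cacna1s was at 33.0 in mouse 60584 (next 27.6). Among those of day 14, Scn2a was at 71.0 (next 80.1) and Scn3a at 32.1 (next 37.8) in mouse 59708, and Cacng5 at 42.7 in mouse 59709 (next 39.2). At day 35, Scn2a was at 90.0 in mouse 59894 (next 85.5) and Scn3b at 25.8 in mouse 59892 (next 30.4) after TNF, and Cacna2d3 at 63.1 in mouse 59732 (next 72.6) and Scn1a at 144 in mouse 59895 (next 133) after PBS. In Sarm1-/- mice, Cacng4 was at 65.8 in the PBS eye of mouse 61561 (next 72.7) and Scn4a at 6.34 in the IL1A+TNF eye of mouse 61765 (next 11.7).

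Effects that differed between groups by an interaction term of limma (log2 scale, FDR under 0.05) were those of TNF with and without IL1A for Scn4a (−0.714) and Scn4b (−0.594). The response to IL1A+TNF differed between genotypes for Cacng5 (−1.116), Scn1a (−1.109), Scn2b (−1.043), Hcn4 (−1.042), Cacnb4 (−0.978), Cacna2d3 (−0.874), Scn3a (−0.862) and Scn2a (−0.835), the 8 with the largest values among those called. Without the IL1A+TNF retinas of mice 61924 and 61926 none of these 8 was called.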

How the results depend on the processing

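The 31 lower calls after IL1A+TNF at day 2 became 25 to 36 under the other settings and 29 to 35 with each treated mouse left out, and the 12 members with full values were called in every alternative run. The 6 against IL1A became 4 to 9 and the 32 against TNF 25 to 33, and TNF against PBS stayed at 0 on all days. The 21 after IL1A ran from 11 (without mouse 60637) to 25 with a mouse left out and were 2 with mouse as a fixed factor. The 2 members of the IL1A by TNF term were 1 by edgeR, 1 without a filter and 1 to 4 with a mouse left out (4 without mouse 60780). For pairing, the fit with no replicate block gave 30 in place of 31 and changed no other count by over 1.5 times. Mouse as a fixed factor gave 29 in place of 5 for WT mice of batch 2 and 0 in place of 37 for Sarm1-/- mice. Fits of this kind kept only the paired eyes of the 2 groups compared (10 and 12 retinas here, 14 for IL1A). In those counts pairing cannot be told apart from the smaller set of retinas. The 5 of the WT mice ran from 3 (without mouse 61719, 61721 or 62224) to 5, and were 33 with WT retinas only, 34 without the low retinas of mice 61924 and 61926 and 36 without that of mouse 61765 too. The 37 of Sarm1-/- mice were 34 to 38 with a mouse left out, 21 with batch 2 alone, 14 without 2 and 0 without 3 low retinas. Between genotypes after IL1A+TNF, 29 became 0 with batch 2 alone, 6 by DESeq2, 3 by edgeR, 1 to 31 with a mouse left out (1 without mouse 61924 or 61926), 0 without 2 and 6 without 3 low retinas. For the genotype by treatment term, 23 became 0 with batch 2 alone, 1 by DESeq2, 0 by edgeR, 0 to 30 with a mouse left out (0 without mouse 61924 or 61926), 0 without 2 and 2 without 3. Directions reversed. Between genotypes after IL1A+TNF, the log2 values without 2 low retinas were 0.089 (Scn1a), 0.258 (Scn4b), 0.06 (Hcn4), 0.114 (Cacnb4), 0.116 (Scn3a) and 0.327 (Cacna2d3). Without 3 they were 0.125 (Cacng5), 0.439 (Scn1a), 0.211 (Scn2b), 0.963 (Scn4b), 0.234 (Hcn4), 0.294 (Cacnb4), 0.206 (Scn3a) and 0.38 (Cacna2d3). For the genotype by treatment term they were 0.227 (Cacna2d3), 0.063 (Scn3a) and 0.018 (Scn2a) without 2, and 0.02 (Cacng5), 0.332 (Scn1a), 0.129 (Scn2b), 0.077 (Hcn4), 0.127 (Cacnb4), 0.277 (Cacna2d3), 0.152 (Scn3a) and 0.2 (Scn2a) without 3. The cause was not tested for the settings other than these left-out retinas. Another scaling (RLE) moved the median of all genes by less than 0.1 in each comparison. TMM and RLE both centre the bulk of the genes, so a shift shared by most genes cannot be seen with either. Depth limits Cacng1, Cacng6, Scn10a and Scn11a, whose levels are close to 0.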
